A study of Mus musculus with 12 samples.

Results

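The clustered replication-dependent histone genes were taken as the protein-coding genes of the GENCODE M21 annotation (GRCm38, the build mm10) whose symbols begin with Hist1h, Hist2h, Hist3h or Hist4h. These were 67 of the 55413 annotated genes (21938 protein-coding), and they encode 6 H1, 18 H2A, 18 H2B, 12 H3 and 13 H4 proteins. They lie in 4 clusters, with 23 genes in a first cluster on chromosome 13 (chr13:21713763-22045676), 31 in a second cluster on the same chromosome (chr13:23529050-23936851), 10 on chromosome 3 (chr3:96217865-96272132) and 2 on chromosome 11 (chr11:58946920-58958830), while Hist4h4 stands alone on chromosome 6. H4K12ac, the acetylation of lysine 12 of histone H4, was measured by ChIP-Seq in neuronal nuclei that had been sorted by FACS from whole hippocampi, 5 from *Tip60* cKO and 5 from control mice. *Tip60* cKO mice carry the tamoxifen-inducible CaMKCreERT2 driver, which acts in postmitotic excitatory neurons of the forebrain, together with Tip60 f/f, and controls carry Tip60 f/f without the driver. Both genotypes received tamoxifen, nuclei were taken at day 10 after the last injection, and the labels give an age of 3 months, male sex and the strain C57BL/6J, whereas the study's methods name C57BL/6 N and either sex. Sorting was for neuronal nuclei and not for nuclei that had recombined, so a list can include neurons that the driver does not reach, and a loss in part of the nuclei cannot be told apart from a smaller loss in every nucleus.

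Each nucleosome is built from the core histones H2A, H2B, H3 and H4, and histone H1 binds the linker DNA between nucleosomes. Replication-dependent histone genes occur in many near-identical copies without introns, are transcribed mainly in S phase, and yield mRNAs that end in a stem-loop in place of a poly(A) tail. This stem-loop is bound by SLBP, and NPAT is the coactivator that gathers at the gene clusters. TIP60 (KAT5) is a lysine acetyltransferase whose substrates include histones H4 and H2A, and postmitotic neurons mostly draw on replication-independent histone genes such as H3f3a, H3f3b and H2afz.

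The stem-loop is the sequence that sets this gene class apart, and it is shown here because it was not used to choose the genes. The consensus of the histone stem-loop, with 6 paired bases on each arm and a loop of 4, was searched on the coding strand within 150 bases after a stop codon. It was found in 63 of the 67 genes (94%), 22 to 59 bases after the stop codon (median 31), against 17 of 21685 other genes (0.0784%). The 4 genes without a match were Hist2h2be, Hist1h2an, Hist1h3g and Hist1h4a. The 6 forms follow with their loop of 4 bases in capitals, read from the RefSeq assembly of GRCm38.
41 genes (5 H1, 15 H2A, 13 H2B, 8 H3), as in Hist1h2ai: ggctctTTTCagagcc
9 genes (1 H1, 1 H2A, 4 H2B, 3 H3), as in Hist1h2bl: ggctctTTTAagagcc
8 genes (all H4), as in Hist1h4k: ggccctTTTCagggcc
2 genes (both H4), as in Hist1h4i: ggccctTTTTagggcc
2 genes (both H4), as in Hist1h4j: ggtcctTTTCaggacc
1 gene (H2A), Hist2h2ac: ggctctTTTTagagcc
All 12 H4 genes with a match carried 1 of the 3 forms found in H4 genes alone, and no gene of another class shared their arms.

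Promoters of 62 of the 67 genes were matched in RefSeq (250 bases before to 50 bases after the start, GRCm38). Searched on both strands, TATAAA occurred in 56.5% of them against 14.1% of 26963 other promoters, CCAAT in 85.5% against 37.8%, and ATTTGCAT, the octamer bound by OCT1 (Pou2f1) in H2B promoters, in 21% against 1.71%. These matches describe letters in a window and not bound sites. The sequences before the starts of the 3 genes with the smallest p-values in rank score, between the starts of a chromosome 3 pair with the highest control levels that stayed close between genotypes and of a pair that went the other way, and of the region that was called lower (all described below) are printed 5′ to 3′, with the CCAAT motif, the TATAAA motif and the reverse complements of both in capitals. ATTTGCAT was in none of them, and each stretch ends before the more upstream of the GENCODE and RefSeq starts.
Hist1h3e, chr13:23562386-23562635, minus strand: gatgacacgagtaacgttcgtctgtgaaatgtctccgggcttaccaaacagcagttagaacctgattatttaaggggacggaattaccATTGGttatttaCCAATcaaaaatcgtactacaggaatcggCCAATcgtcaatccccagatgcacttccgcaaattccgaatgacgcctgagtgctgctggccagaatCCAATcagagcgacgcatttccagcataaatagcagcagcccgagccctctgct
Hist3h2ba, chr11:58948661-58948910, plus strand: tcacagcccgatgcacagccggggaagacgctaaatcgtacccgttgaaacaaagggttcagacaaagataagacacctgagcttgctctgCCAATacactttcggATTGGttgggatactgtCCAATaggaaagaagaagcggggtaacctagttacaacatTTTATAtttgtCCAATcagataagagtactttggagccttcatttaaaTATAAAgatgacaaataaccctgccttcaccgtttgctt
Hist4h4, chr6:136804432-136804681, minus strand: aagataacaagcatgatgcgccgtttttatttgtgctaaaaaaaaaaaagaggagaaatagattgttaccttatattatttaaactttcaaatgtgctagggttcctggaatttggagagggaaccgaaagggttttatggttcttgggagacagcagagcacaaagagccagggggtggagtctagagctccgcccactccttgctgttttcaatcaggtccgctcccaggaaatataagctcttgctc
Hist2h2ac/Hist2h2be, chr3:96220881-96221071, plus strand: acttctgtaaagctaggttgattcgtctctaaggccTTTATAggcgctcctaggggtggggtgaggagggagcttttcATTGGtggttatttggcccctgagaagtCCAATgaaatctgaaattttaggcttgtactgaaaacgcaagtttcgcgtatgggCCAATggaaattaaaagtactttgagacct
Hist1h2bq/Hist1h2ao, chr13:21810200-21810366, plus strand: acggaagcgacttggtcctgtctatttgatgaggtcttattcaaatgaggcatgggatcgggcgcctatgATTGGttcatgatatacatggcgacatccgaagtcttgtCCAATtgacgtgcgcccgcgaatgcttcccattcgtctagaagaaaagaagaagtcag
region upstream of Hist1h3e, chr13:23562907-23563206, minus strand: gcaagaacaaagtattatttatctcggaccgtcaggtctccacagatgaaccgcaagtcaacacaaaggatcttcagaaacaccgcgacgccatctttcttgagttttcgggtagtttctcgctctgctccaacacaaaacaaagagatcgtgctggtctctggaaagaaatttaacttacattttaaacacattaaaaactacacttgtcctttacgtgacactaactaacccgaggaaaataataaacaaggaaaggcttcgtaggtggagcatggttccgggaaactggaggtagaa
The Hist1h3e stretch held 4 CCAAT motifs and Hist3h2ba 4 CCAAT and 2 TATAAA motifs, whereas the Hist4h4 stretch held none of either. The 300 bases upstream of Hist1h3e, which lie around the median summit of the control peaks, held none of the 3 motifs.

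Each library entered peak calling with 22864189 to 37077725 tags in *Tip60* cKO and 27418740 to 37923809 tags in control mice. The lists held 64245 to 135494 and 93575 to 136409 peaks, and the peaks covered 43.8 ± 14.0 Mb and 56.4 ± 10.7 Mb of the genome (SD, n = 5). *Tip60* cKO mouse 5 had the fewest tags and the shortest list, so class and cluster means in rank score are given both ways where it moves the difference by over 1.5 times. Mice 1 to 3 of both genotypes carry lane 7 in the file names and mice 4 and 5 lane 8. Input was pooled to 1 library per genotype, so a difference between the inputs cannot be told apart from one between the genotypes. All 8 neuronal markers looked at (Rbfox3, Snap25, Slc17a7, Syt1, Neurod2, Prox1, Tubb3 and Grin1) had a peak in all 10 lists, and the 5 markers of the oligodendrocyte lineage had none in any list.

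Peaks were scored in a window of 2 kb on either side of the transcription start site (TSS, the annotated 5′ end). For the rank score the windows of all 55413 genes in a library were ordered by the fold enrichment of their highest peak and given their percentile in this order, with 0 for no peak. Since most windows hold no peak, the weakest peaks of a list already score 65.2 to 72.0, so a TSS that loses a weak peak loses most of its score. For TSS coverage the bases of this 4 kb window that fell into peaks were taken as a percentage, which moves with the number and length of peaks that passed the threshold.

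H4K12ac peaks lay at most of the histone genes in both genotypes and at fewer of them in *Tip60* cKO mice. In the 5 control mice 59, 62, 57, 54 and 63 of the 67 genes had a peak, and in the 5 *Tip60* cKO mice 60, 50, 53, 54 and 33. The mean was 59.0 ± 3.67 genes in control and 50 ± 10.2 in *Tip60* cKO mice (SD, n = 5 each), and the genotypes overlapped. As a share this was 88.1 against 74.6%, while 57.3 ± 0.873 against 54.9 ± 3.02% of all protein-coding genes had a peak. *Tip60* cKO mouse 5 lay far below the others. Without it the mean difference was −4.75 genes in place of −9, and within lanes it was −5 (lane 7) and −15 (lane 8). As a share the difference without that mouse was −7.09 in place of −13.4 percentage points. Over all protein-coding genes it was −1.13 in place of −2.36.

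The mean rank score over the 67 genes was 70.0 ± 4.54 in control and 59.0 ± 11.5 in *Tip60* cKO mice (63.6 ± 5.89 without mouse 5). Over all protein-coding genes it was 48.5 ± 0.573 and 46.8 ± 2.12 (47.7 ± 1.01 without mouse 5). Mean TSS coverage was 19.8 ± 3.13% against 13.5 ± 4.85% (15.1 ± 3.69% without mouse 5), that is 68.1% of the control level. Over all protein-coding genes coverage was 15.9 ± 1.59% against 12.5 ± 2.61% (13.5 ± 1.53% without mouse 5), that is 78.7% of the control level. Both measures overlapped between the genotypes at the histone genes.

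**Figure D1:**
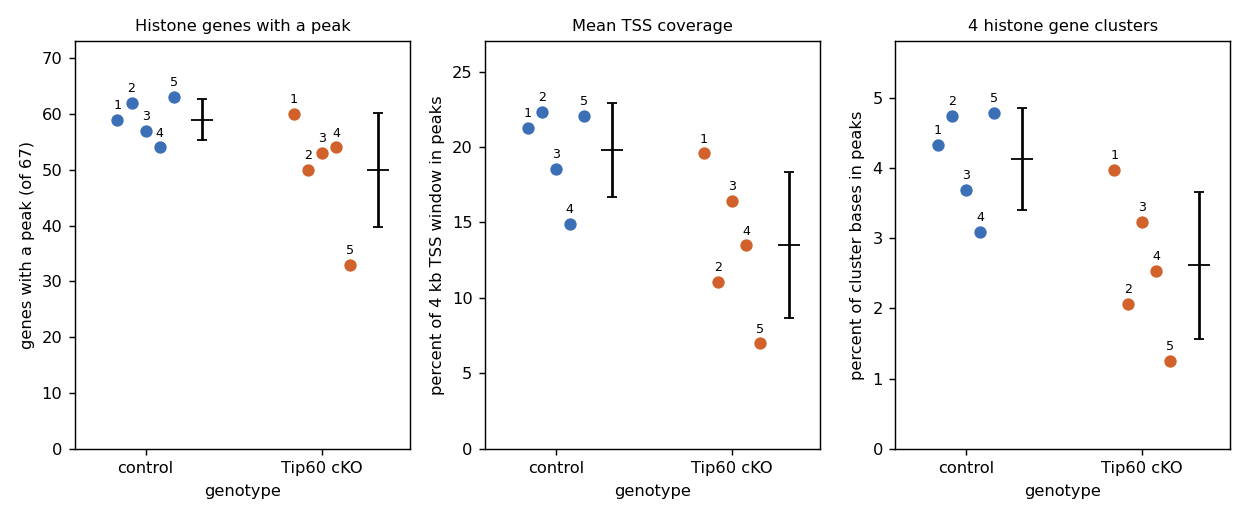
Histone genes with a peak within 2 kb of the TSS (of 67), mean TSS coverage (%), and percent of the bases of the 4 clusters in peaks, for each control (blue) and Tip60 cKO mouse (orange), with the mouse number above each point and bars for mean and SD (n = 5). Tip60 cKO mouse 5, with 33 genes, is the lowest in each panel, Tip60 cKO mouse 1 lies within the control range in all 3, and mouse 2 lies below every control in all 3.

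All histone classes had a lower mean in *Tip60* cKO mice in both measures. The linker histone H1 genes had a coverage of 13.5 ± 1.84% in control and 6.71 ± 0.929% in *Tip60* cKO mice, or 49.8% of the control level, and this was the class whose genotypes did not overlap (11.5 to 15.5% in control, 5.49 to 8.04% in *Tip60* cKO mice). Coverage of H3 genes was 23.2 ± 2.77 against 13.5 ± 5.23% (58.1% of control) and of H4 genes 16.1 ± 3.18 against 10.6 ± 4.51% (65.9%). The H2B genes followed with 19.8 ± 3.57 against 14.4 ± 5.76% (72.4%) and the H2A genes with 22.3 ± 3.89 against 17.0 ± 5.50% (76.1%). Without *Tip60* cKO mouse 5 the difference in coverage was −3.46 in place of −5.33 percentage points for H2A and −3.59 in place of −5.48 for H2B genes, and −6.81 in place of −6.75 for H1 genes. In rank score H4 genes were at 65.8 ± 8.58 in control and 48.7 ± 12.5 in *Tip60* cKO mice and H2A genes at 71.0 ± 5.75 and 63.8 ± 11, with H1, H2B and H3 genes at 59.1, 69.9 and 78.4 in control and 46.7, 59.7 and 68.3 in *Tip60* cKO mice. The order of the classes rested on mouse 5. Without it the differences in rank score were −14 for H1, −12.5 for H4, −5.05 for H3, −3.48 for H2B and −3.08 for H2A genes, in place of −12.4, −17.1, −10.1, −10.3 and −7.21. These are descriptions of whole classes and carry no test, and the differences between classes were not tested.

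The 4 clusters differed in level. The 2 genes on chromosome 11 scored 95.2 ± 2.26 in control and 90.2 ± 1.36 in *Tip60* cKO mice without overlap, and the 10 genes on chromosome 3 scored 89.1 ± 1.27 and 80.2 ± 7.64. The large clusters on chromosome 13 were lower, with 67.4 ± 9.57 against 52.5 ± 14.4 in the first and 63.3 ± 2.95 against 54.4 ± 12.0 in the second. Without *Tip60* cKO mouse 5 the differences were −9.20 in place of −15.0 in the first, −4.30 in place of −8.93 in the second and −5.78 in place of −8.82 on chromosome 3, while on chromosome 11 the difference of −4.91 was −4.92. The other 11 protein-coding genes within the clusters scored 30.3 ± 6.72 and 26 ± 5.94 (28.2 without mouse 5), so peaks in the clusters lay mainly at histone genes. Of the peaks in the clusters, 84.6 to 93.1% in single mice were within 2 kb of a histone gene TSS.

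Peaks covered 4.12 ± 0.728% of the bases of the 4 clusters in control and 2.61 ± 1.05% in *Tip60* cKO mice, or 63.3% of the control level. In single control mice this was 4.33, 4.74, 3.68, 3.08 and 4.78%, and in *Tip60* cKO mice 3.97, 2.06, 3.23, 2.54 and 1.25%. Only *Tip60* cKO mice 1 and 3 reached the range of the controls. The second cluster on chromosome 13 held 36, 32, 31, 28 and 35 peaks in the controls and 26, 16, 25, 20 and 10 in *Tip60* cKO mice. There the genotypes did not overlap, with 32.4 ± 3.21 against 19.4 ± 6.62 peaks (21.8 without mouse 5). The first cluster on the same chromosome overlapped, with 20.4 ± 5.08 against 14.2 ± 5.89 peaks.

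**Figure D2:**
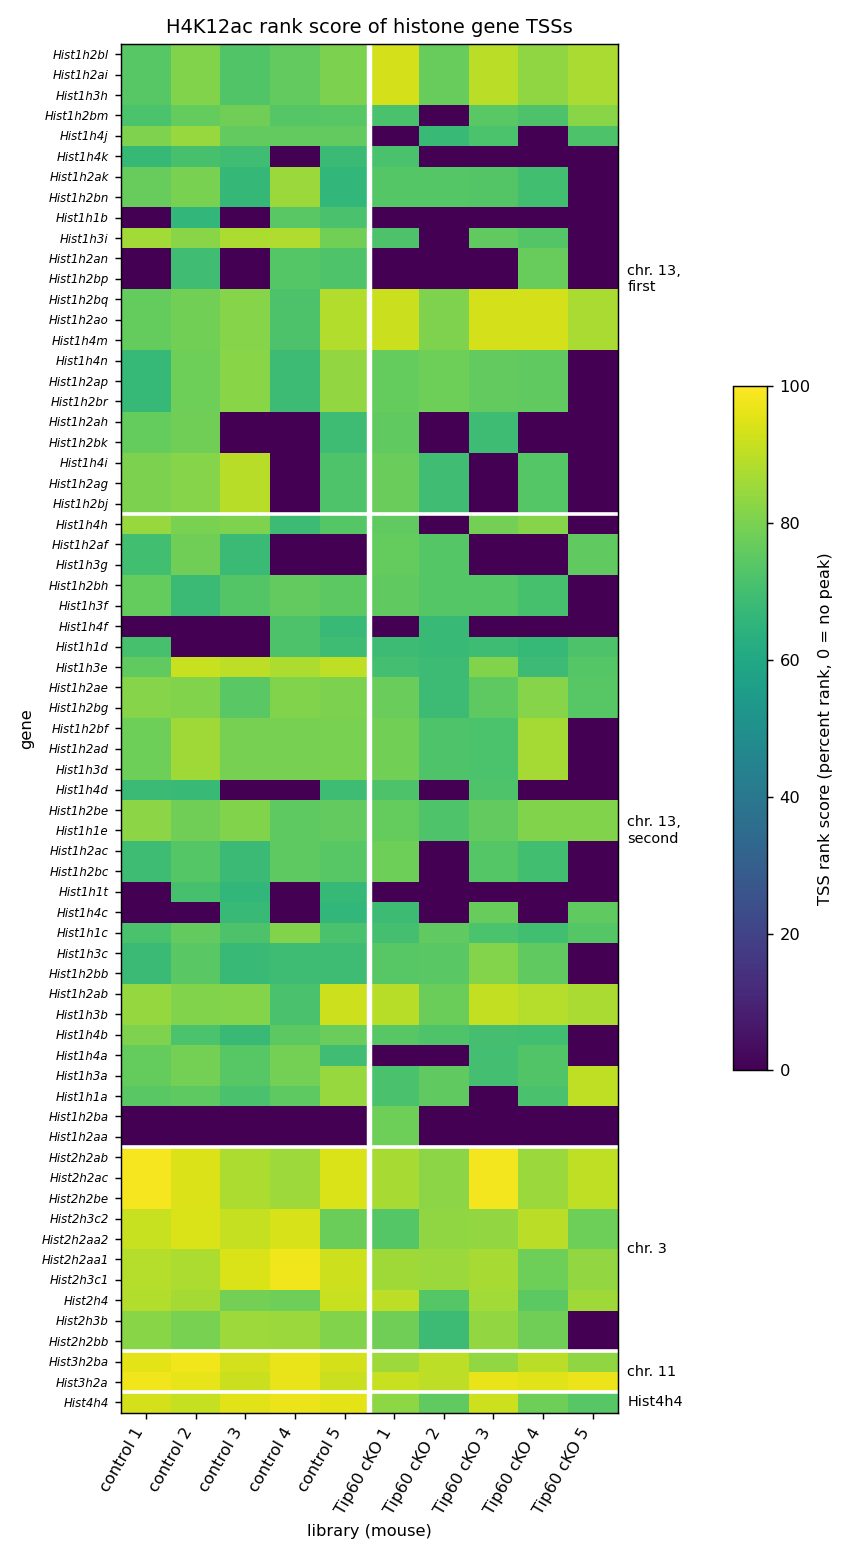
TSS rank score (colour, percent rank from 0 for no peak to 100) of each of the 67 histone genes (rows, in genomic order within each cluster) in the 5 control and 5 Tip60 cKO libraries (columns). Genes of the chromosome 3 and chromosome 11 clusters are high in nearly every library, 6 of 23 and 9 of 31 genes of the chromosome 13 clusters have a peak in all 10 lists and the others in some, and Tip60 cKO mouse 5 has no peak at 34 genes.

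The histone genes differed from other genes in the shape of the signal around the TSS. At 200 bp downstream of the TSS 61.5 ± 7.03% of them had a peak in control and 45.7 ± 9.99% in *Tip60* cKO mice, and at 500 bp upstream 37.9 ± 10.3 and 28.7 ± 11%. Between these flanks the peaks ended, and at 100 bp upstream 0.299 ± 0.668 and 0% of the histone genes lay in a peak. The other protein-coding genes with a peak in at least 2 lists (13624) kept 36.8 ± 3.60 and 29.6 ± 6.39% at that position, with 71.2 and 63.2% at 200 bp downstream. The gap was there among the 26 genes of divergent pairs (0% in both genotypes), the 41 others (0.488 and 0%) and the 46 genes in sequence that is largely unique (0.435 and 0%).

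**Figure D3:**
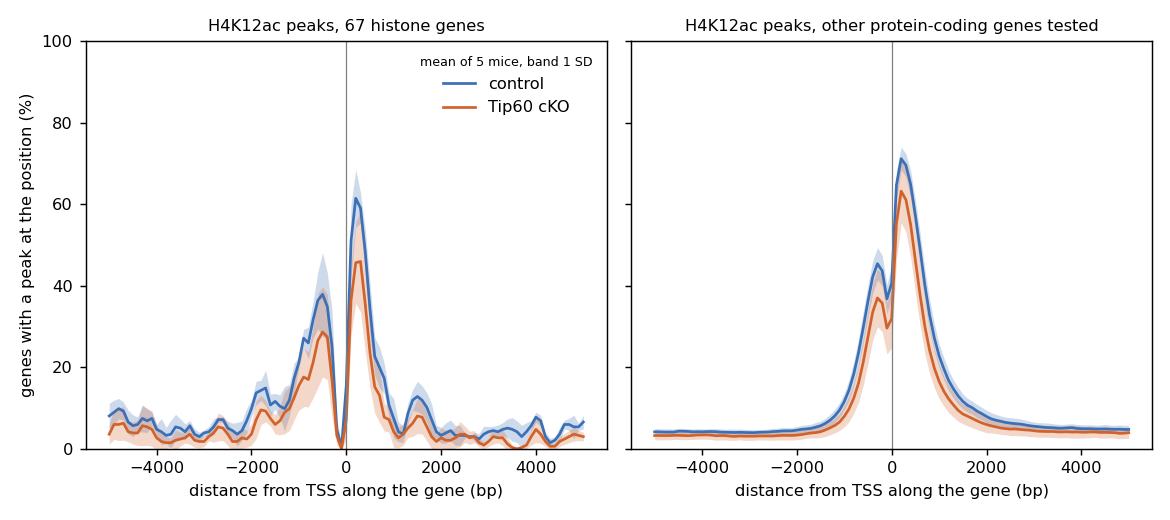
Percent of genes that lie in an H4K12ac peak at each distance from the TSS (bp, along the direction of transcription), for the 67 histone genes (left) and the other protein-coding genes tested (right), with mean (line) and SD (band) of 5 mice. The histone genes reach about 0 at 100 bp upstream in both genotypes, where other genes keep 36.8% in control and 29.6% in Tip60 cKO mice.

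The genes do not count as independent points. A second histone TSS lay within 2 kb of 51 genes, 13 divergent pairs (12 of an H2A and an H2B gene) had starts a median of 268 bp apart, and neighbours can share their strongest peak. Between 20 and 38 different peaks stood behind the 33 to 63 genes with a peak in a library. Near-identical copies also limit where a read can be placed. A median of 85.2% of the 50-base words in the 4 kb windows were unique in the genome, with 21 genes under 80% and 6 under 25%. For the 46 genes at 80% or more the mean rank score was 65.3 ± 5.77 against 52.9 ± 10.1, and for the 21 others 80.2 ± 2.98 against 72.5 ± 16.2. Without *Tip60* cKO mouse 5 the difference was −9.0 in place of −12.4 for the 46 genes and −0.53 in place of −7.70 for the 21 others. Of the 62 promoters matched in RefSeq 1, that of Hist1h1d, began over 500 bp from the GENCODE start. How reads with several possible positions were treated is not given in the sources used here.

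Gene by gene, 65 histone genes had a peak in at least 2 lists and were tested with limma among 21672 such genes, with adjusted p-values below 0.05 called. The remaining genes, the testis histone pair Hist1h2aa and Hist1h2ba, had a peak in *Tip60* cKO mouse 1 alone. In rank score no histone gene was called in either direction (background 0.157% lower, 0.0784% higher), while at an unadjusted p below 0.05 there were 9 lower and 6 higher genes of 65 (background 6.68 and 5.1%). Of the 9, 2 (Hist1h1b and Hist1h1t) had a peak in control lists alone and passed the filter only through them, and the 7 others were 10.8% of the 65 (background 5.39%). The mean was lower in *Tip60* cKO mice at 53 of the 65 genes (81.5%; background 55.6%), with a median difference of −14.4 in rank score, beside −0.69 over all genes tested. These sets are unlike, since 26 of the 65 histone genes but 13004 of the 21672 genes tested had a peak in all 10 lists. A score can drop to 0 only where a peak is missing, and the part of this in the medians was not tested. Genes with identical scores in all lists form 40 groups, of which 34 (85%) were lower. Without *Tip60* cKO mouse 5, 50 of 65 were lower (background 52.7%) with a median of −4.06, and with all lists at equal length the median over 63 genes was −8.43.

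The genotypes did not overlap in rank score at 5 genes, all lower in *Tip60* cKO mice (5 of 65; background 1.62% lower, 1.93% higher). These were Hist3h2ba, Hist1h4j, Hist1h3i and the neighbours Hist2h2aa1 and Hist2h3c1, which share a peak. No gene had a peak in at least 4 more lists of one genotype (background 0.955% lower, 0.291% higher). Hist1h1b, a linker histone gene, and Hist1h1t, which encodes the testis linker histone, each had a peak in 3 control and no *Tip60* cKO lists (limma, adjusted p = 0.347 each). They were named after their values were seen.

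Hist3h2ba (H2bu2 in RefSeq; chr11:58948920-58949533, plus strand), an H2B gene, had the smallest p in rank score. It scored 95.8, 97.8, 93.1, 96.6 and 93.5 in the control and 85.5, 90.0, 83.9, 89.5 and 83.3 in the *Tip60* cKO mice. Every control lay above every *Tip60* cKO mouse (difference −8.92 ± 2.05, SE, limma, adjusted p = 0.112). Its neighbour Hist3h2a, an H2A gene at the same level in controls, differed by −0.90 ± 2.21 (limma, adjusted p = 0.890), with 95.0 ± 2.69 in control and 94.1 ± 3.26 in *Tip60* cKO mice. Ranked by pileup, the peak height that does not use the local background, Hist3h2ba differed by −4.40 (limma, adjusted p = 0.572) and Hist3h2a by −4.51 (0.581), so the contrast between these neighbours was not there on that scale.

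Hist4h4 (H4f16 in RefSeq; chr6:136801553-136804415, minus strand), the H4 gene outside the clusters, scored 93.6, 91.3, 95.6, 97 and 96.1 in control mice and 82.8, 75.6, 92.4, 78.0 and 74.0 in *Tip60* cKO mice. All *Tip60* cKO mice but mouse 3 lay below the controls (difference −14.2 ± 3.49, SE, limma, adjusted p = 0.128). Without that mouse Hist4h4 was called (−17.1, limma, adjusted p = 0.0265), and it was the only histone gene called in rank score in any of the fits. In that fit 0.238% of all genes tested were called lower. Ranked by pileup it differed by −4.89 (limma, adjusted p = 0.705). Its coverage was 22.9, 17.9, 24.3, 18.4 and 25.1% in the controls and 13.1, 10.8, 10.6, 14.8 and 11.4% in *Tip60* cKO mice. Here the genotypes did not overlap, with 21.7 ± 3.38 against 12.2 ± 1.79% (limma, adjusted p = 0.0584).

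On chromosome 3, Hist2h2aa1 and Hist2h3c1, an H2A and an H3 gene with 52.4% unique words, scored 92.3 ± 4.08 in control and 83.8 ± 3.48 in *Tip60* cKO mice (limma, adjusted p = 0.259), a difference of −8.43 that was −1.15 when ranked by pileup. The trio Hist2h2ab, Hist2h2ac and Hist2h2be, 2 H2A and 1 H2B gene that share their strongest peak, scored 92.1 ± 5.54 and 88.6 ± 6.10 (−3.50 ± 3.69, SE, limma, adjusted p = 0.728, and −5.89 to −1.85 with each library left out). Coverage of Hist2h2ac was 49.6 ± 9.02% in control and 48.2 ± 11% in *Tip60* cKO mice, so this gene was among the broadest in both genotypes. Hist2h4, an H4 gene named here after its values were seen, had the highest control coverage of the 67 genes (58.9%, against 39.5% in *Tip60* cKO mice, limma, adjusted p = 0.194).

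The 6 genes at p below 0.05 in the other direction were in 2 groups of neighbours in the first cluster of chromosome 13. Hist1h2bl, Hist1h2ai and Hist1h3h shared scores of 74.0, 80.9, 72.9, 76.1 and 80.2 in control and 93.6, 76.6, 89.7, 83.6 and 87.2 in *Tip60* cKO mice (+9.31 ± 3.37, SE, limma, adjusted p = 0.347). Hist1h2bq, Hist1h2ao and Hist1h4m shared 76.2, 78.5, 81.8, 72.1 and 88.5 in control and 92.1, 80.6, 93.4, 93.7 and 87.2 in *Tip60* cKO mice (+9.94 ± 3.72, SE, limma, adjusted p = 0.347). In both groups the genotypes overlapped. The strongest peak was not the same one in both genotypes, with a median summit at −551 bp from the Hist1h2ai TSS in control and +245 bp in *Tip60* cKO mice, and at +345 bp from the Hist1h2ao TSS in control and −468 bp in *Tip60* cKO mice (negative is upstream). The local background was thus read at different positions (1.34 and 1.20 times the genome-wide level in control, 1 in *Tip60* cKO mice), its part in the scores was not tested, and only 1.27 to 4.73% of the words around the second group were unique. Ranked by pileup the first group differed by +1.73 in place of +9.31 (limma, adjusted p = 0.869) and the second by −0.36 in place of +9.94.

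**Figure D4:**
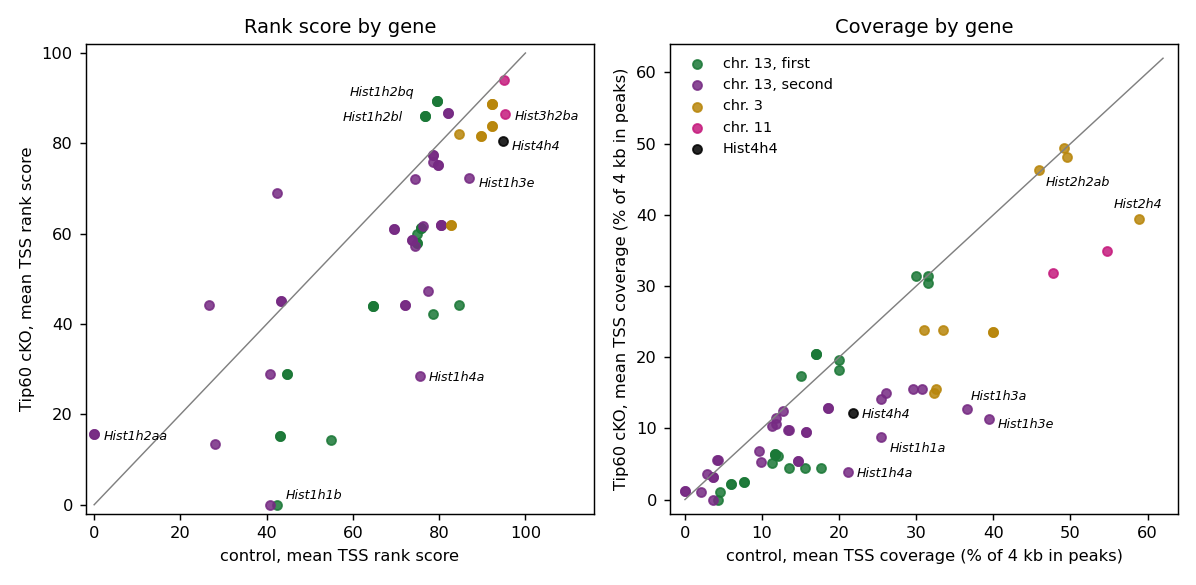
Mean TSS rank score (left) and mean TSS coverage in percent of the 4 kb window (right) of each histone gene in control (x axis) and Tip60 cKO mice (y axis), coloured by cluster, with the line of equal values. 53 of the 65 genes tested in rank score and 55 in coverage lie below the line, and Hist1h2bl and Hist1h2bq, which stand for 3 genes each, lie above it on the left.

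At the lower end, Hist1h4c and Hist1h4f, both H4 genes, had the lowest control scores after the testis pair. Hist1h4c had a peak in 2 control and 3 *Tip60* cKO lists (26.7 ± 36.5 against 44.2 ± 40.5, limma, adjusted p = 0.796) and Hist1h4f in 2 and 1 (28 ± 38.4 against 13.5 ± 30.3, limma, adjusted p = 0.805). With each library left out the difference ran from +9.41 to +28.6 at Hist1h4c and from −28 to −3.39 at Hist1h4f. Their scores were 0 or between 66.1 and 76.9 in single mice.

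In coverage 4 histone genes were called lower and none higher (4 of 65; background 1.53% lower, 0.0369% higher). The mean was lower at 55 of 65 genes (84.6%; background 81%), with a median difference of −5.23 percentage points, beside −4.01 over all genes tested. At an unadjusted p below 0.05 there were 21 lower genes (32.3% of the 65) and 0 higher (background 22.3 and 0.891%). The share of histone genes with a lower mean was thus near the background, while the shares called and at p below 0.05 were above it. The share called was not above the background with lists of equal length (1 of 63, background 3.61% lower). Nor was it with a 1 kb window (1 of 62, background 2.21% lower). Whether these shares differ from the background was not tested, and the *Tip60* cKO lists as a whole covered fewer bases of the genome (above). The genotypes did not overlap at Hist1h3e, Hist1h3a, Hist1h1a and Hist4h4, 4 of 65 genes (background 5.23%).

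Hist1h3e (H3c6 in RefSeq; chr13:23561534-23562369, minus strand), an H3 gene, stands 8851 bp from the next histone TSS. Peaks covered 51.2, 38.2, 36.6, 24.1 and 46.9% of its window in the control and 21.6, 4.47, 5.65, 15.3 and 9.87% in the *Tip60* cKO mice. The lowest control lay above the highest *Tip60* cKO mouse (39.4 ± 10.5 against 11.4 ± 7.13%, difference −28 ± 5.05, SE, limma, adjusted p = 0.0244). Its rank score was 87.0 ± 6.58 in control and 72.4 ± 5.24 in *Tip60* cKO mice (limma, adjusted p = 0.145), and the difference of −14.6 was −56.1 with lists of equal length (0.306) and −9.86 when ranked by pileup (0.46). Hist1h3e alone stayed called in coverage when all lists were shortened to equal length (limma, adjusted p = 0.0101) and with a window of 1 kb (0.0215). Over its alternatives the adjusted p ran from 0.0101 to 0.0978.

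The other 3 genes called in coverage are neighbours in the second cluster of chromosome 13, whose windows overlap: Hist1h4a (H4), Hist1h3a (H3) and Hist1h1a (H1). At Hist1h3a coverage was 48.1, 32.7, 39.1, 33.4 and 29.8% in control and 6.32, 13.2, 9.12, 19.8 and 15% in *Tip60* cKO mice. The genotypes were far apart, with 36.6 ± 7.27 against 12.7 ± 5.25% (limma, adjusted p = 0.0182, and 0.0164 to 0.1 over its alternatives). Hist1h1a went from 25.4 ± 6.15 to 8.77 ± 5.97% (limma, adjusted p = 0.0498, and 0.0415 to 0.145 over its alternatives). Hist1h4a covered 29.6, 20.5, 22.5, 22.4 and 10.6% in control mice and 0, 0, 9.12, 10.6 and 0% in *Tip60* cKO mice (limma, adjusted p = 0.0461, and 0.0371 to 0.204 over its alternatives). Its groups touched at the lowest control, and 3 *Tip60* cKO mice had no peak there. With lists of equal length its coverage difference was −9.06 in place of −17.2 percentage points. At Hist1h1a the difference was then −11.0 in place of −16.6 and at Hist1h3a −16.0 in place of −23.9. The rank score did not pass the threshold at any of these 3 genes. At Hist1h3a it was 78.6 ± 4.0 against 75.9 ± 8.26 (−2.63, limma, adjusted p = 0.807). This difference was −0.36 when ranked by pileup and −6.21 to −1.12 with each library left out. It was −16.6 with lists of equal length and −57.8 with a window of 1 kb (limma, adjusted p = 0.108). At Hist1h1a the rank score was 76.2 ± 4.99 against 61.7 ± 35.4 (−14.5, limma, adjusted p = 0.721, and +0.95 without *Tip60* cKO mouse 3). At Hist1h4a it was 75.5 ± 4.11 against 28.5 ± 39.1 (limma, adjusted p = 0.347).

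These calls depended on single libraries and on the list length. Hist1h3a alone stayed called without any one of *Tip60* cKO mice 2, 3, 4 or 5 or control mice 1, 2 or 5, and Hist1h3a with Hist1h3e without control mouse 3. In these fits 0.183 to 0.947% of all genes tested were called lower. Without *Tip60* cKO mouse 1 there were 7 calls and without control mouse 4 there were 6, and the share of all genes called lower rose as well, to 6.6 and 4.29% in place of 1.53%. With the replicate number as a block 0 histone genes, and 0 of all 21672 genes, were called in coverage.

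Of 144701 consensus regions (merged peaks found in at least 2 lists), 90 lay in the clusters or within 2 kb of a histone gene TSS, 79 of them within 2 kb of a TSS. Region by region 67 of the 90 were lower in *Tip60* cKO mice (74.4%; background 56.9%), with a median difference of −14.8 in rank score, beside −2.21 over all regions. These values include *Tip60* cKO mouse 5. The 2 sets are unlike, since 60 of the 90 regions but 69959 of the 144701 were found in at least 5 lists. At an unadjusted p below 0.05 there were 22 lower and 2 higher (background 8.34 and 3.68%). Of the 22, 9 (40.9%) had a peak in no *Tip60* cKO list and so passed the filter through the controls alone, as did 55.2% of such regions genome-wide. The 13 with peaks in both genotypes were 14.4% of the 90 regions (background 3.73%). A single region was called lower (1 of 90; background 0.475% lower) and none higher (background 0.0864% higher).

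The called region, chr13:23562832-23563353, lies 463 to 984 bp upstream of the Hist1h3e TSS, and 300 of its bases are printed above. All 5 controls had a peak there, with fold enrichments of 3.87, 3.07, 3.92, 4.24 and 4.58 over the local background and summits 599 to 866 bp upstream. No *Tip60* cKO mouse had a peak. The region scored 75.2 ± 12.0 in control mice and 0 in all *Tip60* cKO mice (limma, adjusted p = 0.000494), and 100% of its 50-base words were unique. It entered the test through the control lists alone, so the filter itself favours a difference at this region and its p-value is not independent of how it was selected. At a q-value below 0.01 the count was again 5 against 0 lists, with the same number of peaks per list it was 4 against 0, and with each library left out the adjusted p lay between 0.000776 and 0.00171. With the replicate block it was 0.0476. Missing peaks mean only that the signal did not reach the threshold, and some acetylation may remain there.

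**Figure D5:**
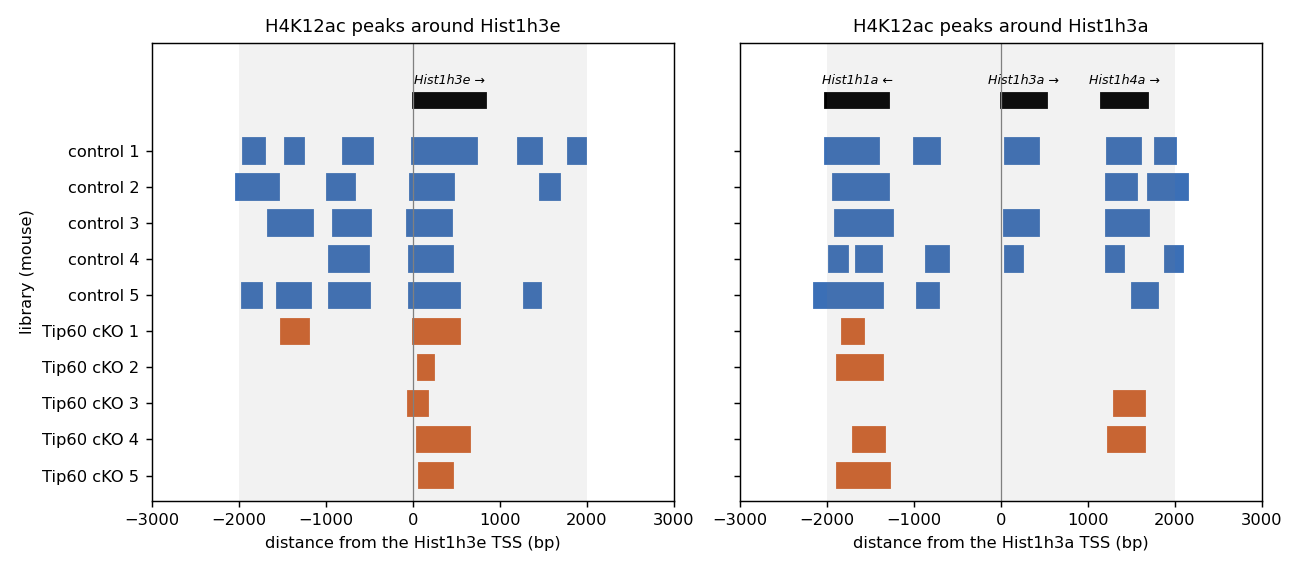
H4K12ac peaks (bars) of each control (blue) and Tip60 cKO library (orange) around the TSS of Hist1h3e (left) and Hist1h3a (right), by distance from the TSS in bp along the direction of transcription, with gene bodies (black) above and the 2 kb window shaded. All 5 controls and none of the Tip60 cKO mice have a peak 463 to 984 bp upstream of Hist1h3e, while all 10 lists have a peak just downstream of its TSS.

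The next regions did not pass the threshold. At Hist2h2bb on chromosome 3 (chr3:96269729-96270388) all controls scored 88.7 to 93.8, whereas *Tip60* cKO mice 1 and 2 scored 52.8 and 55.7 and the others 0 (limma, adjusted p = 0.0564). Near Hist1h1c (chr13:23740019-23740642), a linker histone gene, the controls scored 43.0 to 89.8 and *Tip60* cKO mouse 1 alone had a peak (40.7; limma, adjusted p = 0.0744). The region with the smallest p in the other direction overlaps Hist1h2ai (chr13:21716396-21717011), at 57.6 ± 11.6 in control and 88.7 ± 8.64 in *Tip60* cKO mice (limma, adjusted p = 0.147), with 45.3% unique words.

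Of 20 genes for histone gene transcription and mRNA 3′ processing, 19 were tested, of which 13 were lower and 6 higher and none was called (68.4% lower with a median of −3.06, beside 55.6% and −0.69 over all genes tested; background of calls 0.157% lower and 0.0784% higher). Upf1, a helicase of histone mRNA decay, had the smallest p (86.6 ± 5.15 against 76.9 ± 3.70, limma, adjusted p = 0.251), followed by Ccne2, a cyclin of S phase entry (77.6 ± 3.98 against 84.7 ± 3.51, limma, adjusted p = 0.347). Of the genes introduced above, Slbp scored 87.8 ± 4.07 and 85.6 ± 2.62 and Npat 74.9 ± 6.14 and 79.2 ± 7.99. Cdk2 had no peak in any list.

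Of 11 histone genes outside the clusters, which are mostly replication-independent, 7 were lower and 4 higher in rank score and none was called (63.6% lower with a median of −0.69, near the 55.6% and −0.69 over all genes). H2afy2, which encodes a macroH2A, scored 82.0 ± 4.86 in control and 94.7 ± 3.00 in *Tip60* cKO mice (limma, adjusted p = 0.112), and H2afx, the variant phosphorylated at DNA breaks, 88.6 ± 4.87 and 77.5 ± 4.53 (limma, adjusted p = 0.176). In coverage H3f3a, which encodes the replacement histone H3.3, was called lower (1 of 11; background 1.53%), with 47.4 ± 7.0 against 24.3 ± 6.56% (limma, adjusted p = 0.0232). Whether these genes and the clustered genes differ in their response was not tested.

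Of 18 genes for histone chaperones and HAT1, which acetylates new H4 at lysine 12, 12 were lower and 6 higher in rank score and none was called (66.7% lower with a median of −1.14, beside 55.6% and −0.69 over all genes). Nasp, an H1 and H3–H4 chaperone, went from 79.6 ± 6.13 to 29.8 ± 40.8 (limma, adjusted p = 0.343), with a peak in 7 of 10 lists. Daxx, a chaperone of H3.3, scored 77.3 ± 1.71 and 85.9 ± 6.39 (limma, adjusted p = 0.347), and Hat1 itself 59.9 ± 33.6 and 56.4 ± 31.6. In coverage Cabin1, a subunit of the HIRA complex, was called lower (1 of 18; background 1.53%), with 22.0 ± 5.87 against 8.77 ± 1.97% (limma, adjusted p = 0.0498).

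Markers of other cells moved with the genotype in part. Mean coverage of the 4 astrocyte markers was 3.22 to 7.0% in control and 0 to 2.69% in *Tip60* cKO mice without overlap, mainly from Gfap (19.6 ± 4.87 against 4.60 ± 3.36%, limma, adjusted p = 0.0287), while Aqp4 and Aldh1l1 were at 0. Mean rank score of the 4 microglia markers was 14.7 ± 8.23 against 3.63 ± 8.11, all from P2ry12, with Cx3cr1, Aif1 and Tmem119 at 0. The 3 endothelial markers scored 14.7 ± 13.5 against 9.37 ± 20.9 (11.7 without mouse 5). The 5 markers of dividing cells scored 11.4 ± 12.4 against 11.1 ± 6.21 (13.9 without mouse 5), with Mki67, Ccnb1 and Cdk1 at 0. Coverage of neuronal markers was 50.7 ± 6.43 against 38.5 ± 10.8%, or 76.0% of the control level, and Syt1, a calcium sensor of synaptic vesicles, was called lower (51.4 ± 7.80 against 29.2 ± 7.07%, limma, adjusted p = 0.0315), while Tubb3, a neuronal tubulin, missed the threshold (52.5 ± 8.65 against 28.3 ± 12.2%, limma, adjusted p = 0.0589). The part of other cell types in the values of the histone genes was not tested.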

How the data were processed

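H4K12ac ChIP-Seq peak lists of 5 *Tip60* cKO and 5 control mice were used. The authors aligned reads to mm10 (STAR), dropped duplicates (samtools rmdup) and ran MACS 2.1.0.20140616 on each library at q < 0.1 against the pooled input of the genotype. Of the deposited columns, pileup is coverage signal and fold enrichment a ratio to the local background, and the p-value and q-value are deposited as −log10 values. The paper's DiffBind step needs reads and was not repeated. No column of another sample was used. A peak counted in a window with 1 base of overlap. Scores were compared with limma 3.58.1 in R 4.3.3 (lmFit, eBayes, genotype only) over all genes or regions that 2 or more lists cover, with Benjamini-Hochberg adjustment; Python 3.11.15 did the rest. The fit was tested on simulated rank scores in which 200 genes were lowered. Falls of 20, 40 and 60 were called at 46.5, 75.5 and 90.5% of these genes. With no gene lowered 5 of 21672 were called. A gene that was not called may thus still differ. No counts per region were available to give a counting error, so the precision is the spread between 5 mice.

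The genes and lists were chosen with earlier results of these data known. Clusters chained genes under 250 kb apart and were extended by 2 kb. Named were genes called in either measure, the 5 with the smallest p in each direction (ties and shared windows included), the 8 highest and 4 lowest in control, Hist4h4, the chromosome 11 genes, and from each list the 2 genes with the smallest p and any called. Alternatives were a stricter q of 0.01, lists shortened to equal length, ranking by pileup, a 1 kb window, all transcript starts, summits only, peaks in at least 1 or 5 lists, a mean-dependent robust prior, a difference of at least 4 lists, omission of single libraries, a replicate block and the lane; unique sequence and counting shared scores once were added after seeing the data. Same-numbered mice are different animals, and their deviations correlated by −0.0375 to 0.0553, so the numbers were not taken as pairs.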

Additional observations from a re-analysis of the deposited data

Results flagged for a closer look

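In 118 groups of 5 mice looked at, 8 (6.78%) held a mouse whose value stood apart from the other 4 by Dixon's criterion, where chance gives about 1 in 20. *Tip60* cKO mouse 3 had the fewest H1 genes with a peak (3, and 4 in each of the other *Tip60* cKO mice), with a Hist1h1a rank score of 0. *Tip60* cKO mouse 5 had 7 H3 genes with a peak (11 or 12 in the others), a Hist3h2a coverage of 14.5% and, against this direction, a Hist1h3a rank score of 90.3. Control mouse 1 had the lowest Hist1h3e rank score of its genotype (75.5). Of the *Tip60* cKO mice, mouse 2 alone had a peak at Hist1h4f (2 control mice had one too), with a rank score of 67.7 and a coverage of 5.17%.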

How the results depend on the processing

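The mean number of histone genes with a peak and the percent of the clusters in peaks were lower in *Tip60* cKO mice under all alternatives run for them (−4.75 to −15 genes and −1.07 to −2.04 percentage points), and the median difference in rank score stayed below 0. Of the alternative values of the main comparisons 82 were counted as the same and 28 as moved. Part of the 82 carry no information. The lanes are balanced over the genotypes, so a lane term leaves a mean difference unchanged, and a count of 0 calls that stayed 0 has no direction or size. The median difference of −14.4 became −8.43 with the same number of peaks per list, −10.4 for genes with a peak in at least 5 lists and −4.58 within lane 7, and ranged from −14.7 to −4.06 with each library left out, the last without *Tip60* cKO mouse 5. The cause was not tested. In rank score 0 histone genes were called in each fit except without *Tip60* cKO mouse 3 (range 0 to 1). There 1 of 65 was called lower (background 0.238% lower, 0.117% higher). In coverage the 4 calls became 1 of 63 genes with the same number of peaks per list (background 3.61% lower). A 1 kb window gave 1 of 62 (background 2.21% lower). With each library left out there were 1 to 7 of 65 (background 0.183 to 6.6% lower). Of the cluster regions 1 was called, 3 of 60 among regions in at least 5 lists (1.32% of all such regions were called lower), 1 to 3 with each library left out (0.472 to 0.903% of all regions), and 4 of 90, all lower, differed by 4 or more libraries in the presence of a peak (2.27% of all regions). Of these 4, the called region and those at Hist1h4i and Hist4h4 had a peak in no *Tip60* cKO list. They passed the filter through the controls alone, so this count is not independent of the filter. With the replicate number as a block, coverage calls were 0 in place of 4, while rank score calls (0) and region calls (1) were as without the block. The replicates share only a number. For single genes, Hist1h1a in rank score was +0.95 in place of −14.5 without *Tip60* cKO mouse 3 (range −21.6 to +0.95 with each library left out), Hist3h2a was +0.14 in place of −0.90 without *Tip60* cKO mouse 2 (range −1.69 to +0.14), and Hist1h2bq, Hist1h2ao and Hist1h4m were −0.36 in place of +9.94 when ranked by pileup. The other single-gene alternatives kept their direction (445 with the same call, 35 weaker, 1 stronger). Alternatives that changed only the list filter, the prior or the model terms reused the same values, so their direction could not change. Genes with shared scores were counted one by one. Where a peak is missing the signal only failed to reach the threshold. The library with the fewest tags had the fewest peaks. *Tip60* cKO mouse 2, however, had more tags than control mouse 1 (36938062 against 33796590) and fewer peaks (113126 against 125511). The part of depth in the missing peaks was not tested.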
